A study of Mus musculus with 45 samples.

Results

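Hepa1-6, a mouse liver tumour line, was sequenced with 2 different control hairpins, and the 3 libraries labelled scramble were compared with the 3 libraries labelled shLucif over all genes. A control hairpin is a short hairpin RNA with no target in the cell: the scramble hairpin carries a shuffled sequence, and shLucif is directed against luciferase, an enzyme that mouse cells lack. These 6 libraries are 6 of the 45 labelled samples of the series. They are the columns whose names match the Hepa1-6 scramble and Hepa1-6 luciferase labels in the knockdown table, which lists 55335 genes, and 12055 of these genes were expressed highly enough to be tested.

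Both groups are labelled Hepa1-6 liver cells with a hairpin line as genotype and with no treatment, and they were collected 24 hours after seeding. One more group of the same table, CT26 with shLucif, is a colon carcinoma line given the same hairpin label and the same handling, and it is used here to place the Hepa1-6 shLucif values. Hepa1-6 and CT26 cells labelled WT, with no hairpin named, and given 48 hours of the solvent DMSO come from a separate table of the drug experiment. They define which genes mark each line and give levels set beside the others where named. Each of these 5 groups has 3 libraries. The labels do not say whether a hairpin line is 1 clone or a pool, how the hairpin was delivered, or whether the libraries of a group came from separate cultures, so p-values measure the spread between these libraries, which may be technical.

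Hepatocytes make most plasma proteins, among them albumin, apolipoproteins and fibrinogen, and their gene programme is driven by a circuit of transcription factors that includes HNF4, FOXA and C/EBP proteins. Liver tumour lines keep part of that programme and often express fetal genes such as alpha-fetoprotein. CT26, a colon carcinoma line, is known as poorly differentiated. A pair of control hairpins in the same line is normally used to show how much expression varies for reasons other than the intended target.

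Expression is given as FPKM, a level per length of transcript, scaled to how many fragments were mapped, so levels can be set side by side between genes. Libraries summed to between 320249.2 and 322100.9 FPKM in scramble and between 320604.6 and 335812.8 FPKM in shLucif, and 11412 to 11432 genes reached 1 FPKM in scramble and 11497 to 11555 in shLucif. Read totals are unknown. The smallest FPKM steps gave no firm relative depth, since 8.86% to 11.2% of their ratios to scramble replicate 1 lay within 0.01 log2 of the estimate. Differences are log2 of FPKM + 1, scramble minus shLucif, with their standard error (SE), tested with limma. A gene is called where its Benjamini-Hochberg adjusted p is below 0.05.

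The labelled cell line was checked first, and the libraries labelled Hepa1-6 shLucif expressed genes of both lines, against their label. In what follows, shLucif means the libraries so labelled. In the drug table, 169 genes had at least 10 FPKM in every Hepa1-6 DMSO library and at most 0.5 FPKM in every CT26 DMSO library, and 142 genes had the opposite pattern. In the knockdown table, the 3 scramble libraries expressed 169, 169 and 169 of the 169 Hepa1-6 line genes at 1 FPKM or more and 2, 2 and 2 of the 142 CT26 line genes. The 3 libraries labelled Hepa1-6 shLucif expressed 144, 145 and 145 of the Hepa1-6 line genes and, together with them, 131, 133 and 130 of the CT26 line genes. The CT26 shLucif libraries expressed 0, 2 and 2 of the Hepa1-6 line genes and all 142 of the CT26 line genes.

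Genes of both lines stood at intermediate levels in shLucif. Of the 169 Hepa1-6 line genes, 157 were called higher in scramble, beside 31.4% over all tested genes, and 23 averaged under 1 FPKM in shLucif. Of the 142 CT26 line genes, 129 were called lower, beside 36.8% over all tested genes, and 11 were too low to test. In scramble, 140 of the 142 averaged under 1 FPKM, so nearly all were tested only because shLucif reached 1 FPKM. That requirement set their direction in advance, so their count of calls is no separate result. The median Hepa1-6 line gene had 20.05 to 20.55 FPKM in the scramble libraries, 5.01 to 5.49 FPKM in the Hepa1-6 shLucif libraries and 0 FPKM in the CT26 shLucif libraries. The median CT26 line gene had 0.0262 to 0.0313 FPKM in scramble, 6.80 to 6.97 FPKM in Hepa1-6 shLucif and 18.8 to 19.4 FPKM in CT26 shLucif. The ranges of the 3 groups do not overlap for either list, and the 3 shLucif libraries are alike. The median Hepa1-6 line gene of scramble stood at 97.3% of its Hepa1-6 DMSO level (quartiles 83.0% and 123%), read across tables that were normalized separately.

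**Figure D1:**
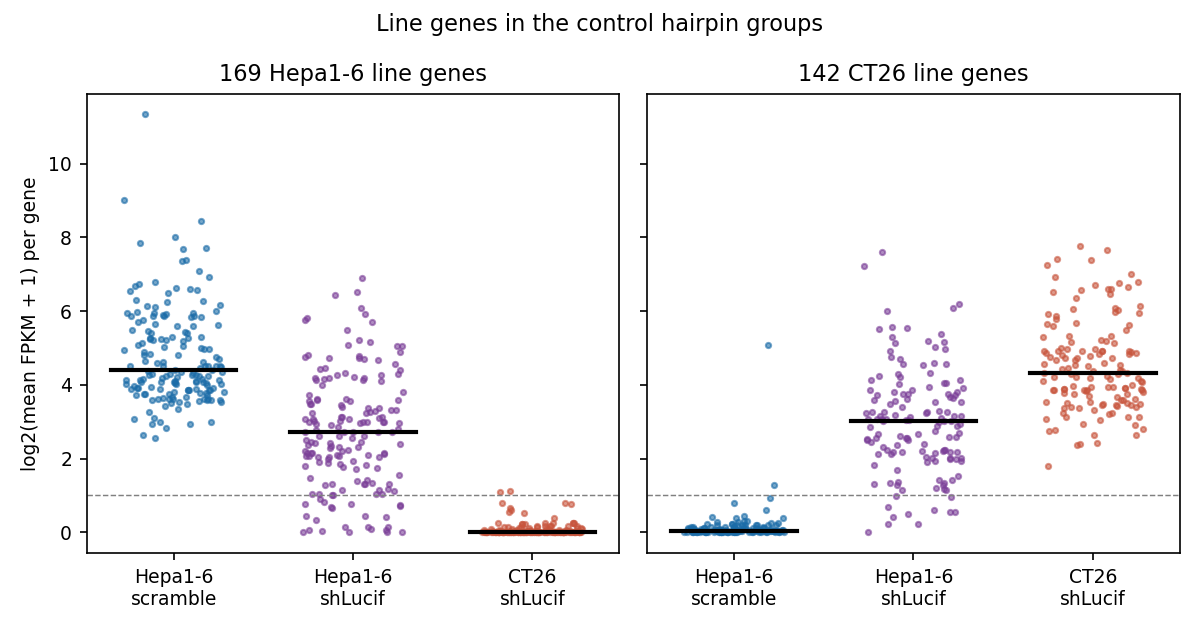
Each point is a gene's mean over 3 libraries as log2(FPKM + 1), for the 169 Hepa1-6 line genes (left) and the 142 CT26 line genes (right) in Hepa1-6 scramble, Hepa1-6 shLucif and CT26 shLucif; black bars are medians over genes and the dashed line marks 1 FPKM. Both lists are clearly expressed in Hepa1-6 shLucif, whereas scramble holds 1 list and CT26 shLucif the other.

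The share of its line's level that a gene kept in shLucif was far from constant. Over the 169 Hepa1-6 line genes, shLucif stood at a median of 23.1% of scramble (quartiles 7.49% and 42.6%), with 31 genes under 5% and 9 genes above 100%. Over the 142 CT26 line genes, shLucif stood at a median of 36.5% of CT26 shLucif (quartiles 18.2% and 65.0%), with 14 genes under 5% and 8 above 100%. Sprr1a was at 1.41% of its scramble level, whereas Tspan8, a tetraspanin, was at 40.4%. Among CT26 line genes, Tmsb4x was at 89.3% of its CT26 shLucif level, and Grem1, a secreted BMP antagonist, at 1.43%. Tspan8 and Grem1 were chosen after their values were seen.

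Genes that differ widely between the lines showed the same order. Of 750 genes with at least 10 FPKM and a difference of at least 4-fold between the means of scramble and CT26 shLucif, 690 (92.0%) had their Hepa1-6 shLucif mean between those of the other groups, 38 had it above both and 22 below both. Over all 12055 tested genes, most of which differ less between the lines, 56.1% had it between, 27.7% above both and 16.2% below both. Over 12675 expressed genes, Pearson's r of log2 values was 0.879 to 0.883 between scramble and Hepa1-6 shLucif libraries, 0.72 to 0.725 between scramble and CT26 shLucif libraries, and 0.879 to 0.884 between Hepa1-6 shLucif and CT26 shLucif libraries. Libraries of the same group reached 0.989 to 0.993. These are correlations across genes of libraries from 1 table, given as a description. In bulk RNA, fewer cells of a type and less RNA per cell cannot be told apart.

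**Figure D2:**
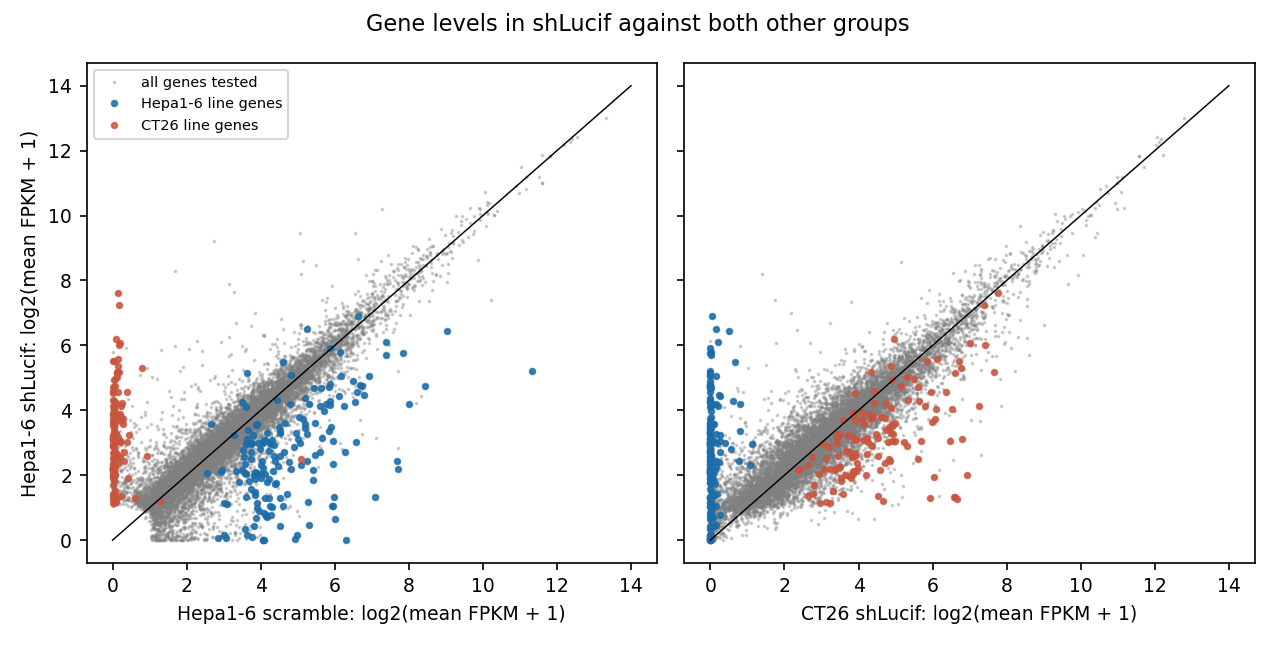
Each point is a gene tested in scramble against shLucif, with its mean in Hepa1-6 shLucif on the vertical axis and its mean in Hepa1-6 scramble (left) or CT26 shLucif (right) on the horizontal axis, all as log2(FPKM + 1); coloured points are line genes and the line marks equal levels. CT26 line genes form a column near 0 in the left panel and Hepa1-6 line genes form 1 in the right panel, and most lie below the line of equal levels in the panel of their own line.

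Scramble differed from shLucif at 8221 of 12055 tested genes (68.2%), with 3789 higher (31.4%) and 4432 lower (36.8%) in scramble. The median difference over all tested genes was -0.04 on the log2 scale. At least 2-fold differences were found for 840 genes higher (6.97%) and 810 genes lower (6.72%) in scramble, and at least 8-fold differences for 73 and 111. The groups did not overlap at 8820 genes (73.2%), so a call or a gap between the groups is the usual case here, and a list is read against these shares. In any list, a member that reached 1 FPKM in 1 group alone could only be higher in that group. Between lines, scramble differed from CT26 shLucif at 10156 of 12415 tested genes (81.8%), of which 3681 by at least 2-fold (29.6%). Hepa1-6 shLucif differed from CT26 shLucif at 8664 of 11906 (72.8%), of which 1943 by at least 2-fold (16.3%). Each pair of these comparisons shares a group of libraries, so their counts are given side by side and were not tested against each other.

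The genes with the largest excess in scramble are epithelial and liver genes that CT26 shLucif listed at or near 0. Sprr1a, a small proline-rich protein of the cornified envelope, had 2576, 2517 and 2673 FPKM in scramble and 39.5, 32.3 and 37.4 FPKM in shLucif. That is a difference of 6.12 (SE 0.07, limma adjusted p = 1.18e-08). The 12 genes with the largest difference in each direction were chosen as called and not overlapping. Their gaps and p-values are therefore a description and no separate result. Its neighbour and paralog Sprr1b, whose reads may be partly shared, averaged 62.2 ± 5.83 FPKM in scramble and 1.5 ± 0.514 FPKM in shLucif (SD, n = 3 each). Tff3, a trefoil peptide secreted with mucus, had 77.4, 80.6 and 74.5 FPKM in scramble and was listed at 0 in all shLucif and all CT26 shLucif libraries.

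Clca3b, a secreted protein of the calcium-activated chloride channel regulator family, averaged 61.3 ± 4.26 FPKM in scramble and 1.05 ± 0.124 FPKM in shLucif (SD, n = 3 each). The promoters of Sprr1a, Sprr1b and Clca3b are shown because they are the 3 of the 12 genes with the largest excess whose promoter holds the pattern TGANTCA on either strand. This pattern allows any base at its centre and is looser than the usual binding motif of AP-1 factors. The centre base is G in both Sprr1a matches, A in Sprr1b and T in Clca3b. They are RefSeq sequences of GRCm38.p6, all on the minus strand, from 250 bases before to 50 after the annotated start of transcription, at chr3:92485832-92486131 for Sprr1a, chr3:92438730-92439029 for Sprr1b and chr3:144849253-144849552 for Clca3b. Capitals mark the pattern, which begins at positions -146 and -116 from the start in Sprr1a, -111 in Sprr1b and -58 in Clca3b.
Sprr1a: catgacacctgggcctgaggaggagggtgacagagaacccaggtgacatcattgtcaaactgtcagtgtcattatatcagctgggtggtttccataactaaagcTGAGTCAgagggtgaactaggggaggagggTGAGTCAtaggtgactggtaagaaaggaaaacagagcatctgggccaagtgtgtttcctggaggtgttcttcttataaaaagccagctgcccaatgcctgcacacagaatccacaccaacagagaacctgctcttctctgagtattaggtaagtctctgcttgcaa
Sprr1b: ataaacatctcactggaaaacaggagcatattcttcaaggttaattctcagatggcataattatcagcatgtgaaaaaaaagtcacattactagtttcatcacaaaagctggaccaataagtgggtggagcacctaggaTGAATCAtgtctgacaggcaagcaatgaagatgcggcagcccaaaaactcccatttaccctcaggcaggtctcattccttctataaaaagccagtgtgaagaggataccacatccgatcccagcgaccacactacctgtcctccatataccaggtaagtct
Clca3b: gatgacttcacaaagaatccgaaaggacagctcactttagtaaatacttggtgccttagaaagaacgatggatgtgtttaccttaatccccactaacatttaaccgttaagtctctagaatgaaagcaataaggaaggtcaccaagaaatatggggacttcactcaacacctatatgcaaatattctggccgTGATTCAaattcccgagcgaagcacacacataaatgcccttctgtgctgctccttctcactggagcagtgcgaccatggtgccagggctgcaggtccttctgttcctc

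On either strand, TGANTCA stood in 3 of the 9 promoters that could be matched among the 12 genes with the largest excess in scramble and in 0 of the 10 matched among the 12 with the largest deficit. Of all 27025 promoters, 7.93% hold it, beside 6.84% of 117 Hepa1-6 line genes, 8.74% of 103 CT26 line genes and 13.3% of 15 hepatocyte markers. Another pattern was searched too and is not reported here. These promoters were chosen for display after the search. These are matches of letters to a pattern looser than the usual AP-1 motif, not shown binding.

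Of the 12 genes with the largest excess, Alb, Igfbp1, Habp2, Selenop and Hpx encode proteins that the liver secretes. Alb, serum albumin, had 143, 123 and 140 FPKM in scramble, 1.78, 1.36 and 1.33 FPKM in shLucif, and was listed at 0 in CT26 shLucif (difference 5.78, SE 0.09, adjusted p = 2.38e-08). Igfbp1, an insulin-like growth factor binding protein made by the liver, had 202, 198 and 222 FPKM in scramble and 3.17, 3.70 and 3.88 FPKM in shLucif (5.51, SE 0.07, adjusted p = 1.49e-08). Habp2, a plasma protease that binds hyaluronan, had 66.0, 62.1 and 62.9 FPKM in scramble and 0.586, 0.532 and 0.618 FPKM in shLucif (5.36, SE 0.05, adjusted p = 5.19e-09). The gap between the groups in each of the 3 follows from how these genes were chosen. Selenop, the selenium carrier of plasma, averaged 204 ± 7.04 FPKM in scramble and 4.46 ± 0.277 FPKM in shLucif (SD, n = 3 each). Hpx, the haem scavenger hemopexin, averaged 38.1 ± 3.94 FPKM in scramble and 0.368 ± 0.224 FPKM in shLucif.

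The largest deficits in scramble are genes that CT26 shLucif expresses. Tmsb4x, the actin-sequestering peptide thymosin beta-4, had 0.0911, 0.163 and 0.0757 FPKM in scramble, 194, 193 and 195 FPKM in Hepa1-6 shLucif and 228, 216 and 208 FPKM in CT26 shLucif (scramble minus Hepa1-6 shLucif -7.46, SE 0.04, adjusted p = 1.81e-09). It was listed at 0 in all 3 Hepa1-6 DMSO libraries. Slc25a4, a mitochondrial ADP/ATP carrier, likewise had 0.0875, 0.166 and 0.154 FPKM in scramble, 152, 150 and 148 FPKM in shLucif and 0 in every Hepa1-6 DMSO library. Serpinh1, the collagen chaperone, averaged 0.141 ± 0.0842 FPKM in scramble and 66.5 ± 4.70 FPKM in shLucif (SD, n = 3 each). S100a4, a calcium-binding protein linked to motile cells, had 5.70, 5.63 and 5.58 FPKM in scramble and 584, 568 and 626 FPKM in shLucif, where it also exceeded the 560, 527 and 538 FPKM of CT26 shLucif.

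Rhox5, a homeobox gene on the X chromosome, was the 1 gene of the 12 with the largest deficit that Hepa1-6 DMSO expressed above 10 FPKM. It had 2.61, 1.46 and 2.66 FPKM in scramble, 295, 326 and 320 FPKM in Hepa1-6 shLucif and 447, 445 and 436 FPKM in CT26 shLucif, and 178, 173 and 179 FPKM in Hepa1-6 DMSO. Scramble therefore lay below all other groups, by -6.62 against shLucif (SE 0.15, limma adjusted p = 1.12e-07). Fscn1, the actin bundler fascin, and Tnfsf9, the ligand of the T cell costimulator 4-1BB, were higher in Hepa1-6 shLucif than in scramble or CT26 shLucif. Fscn1 averaged 0.061 ± 0.0345 FPKM in scramble, 72.6 ± 15.7 FPKM in Hepa1-6 shLucif and 30.1 ± 7.62 FPKM in CT26 shLucif (SD, n = 3 each), while CT26 DMSO held 92.7, 95.9 and 101 FPKM. The remaining members of the 12 lowest are Ppic, Arhgdib, Rpl39l, Cyba and Cldn6, with 0 to 0.287 FPKM on average in scramble and 45.05 to 63.4 FPKM in shLucif.

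**Figure D3:**
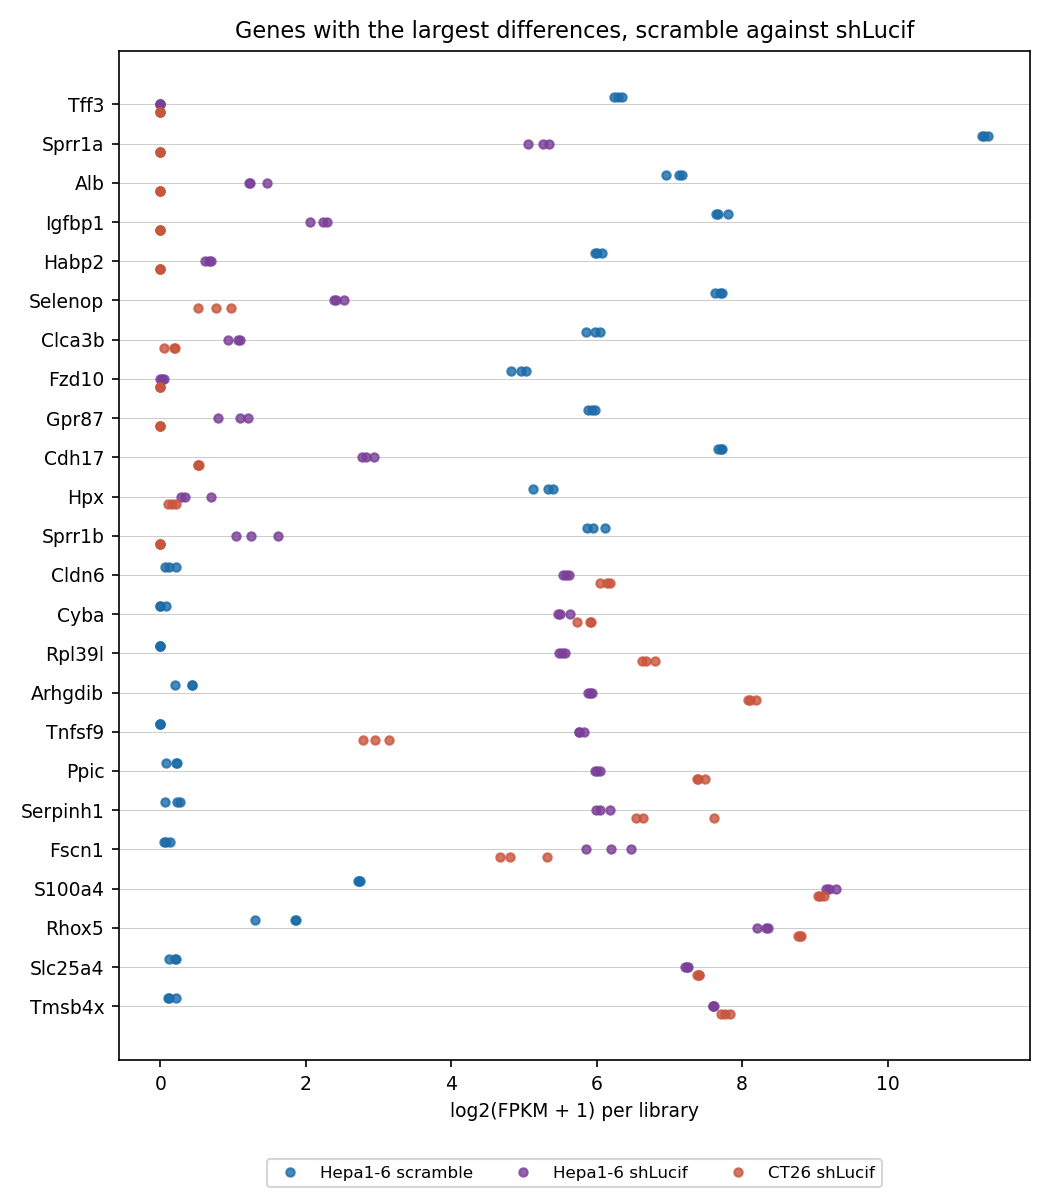
Each point is a library, as log2(FPKM + 1), for the 12 genes with the largest excess (top) and the 12 with the largest deficit (bottom) in Hepa1-6 scramble against Hepa1-6 shLucif, with CT26 shLucif beside them. The genes were chosen as separated between scramble and shLucif, and most shLucif values of the lower genes lie near those of CT26 shLucif.

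The hepatocyte markers that passed the filter were higher in scramble. Of 20 listed, 10 passed the filter, and 10 of these were called higher and 0 lower, with a median difference of 3.16. Each scramble library had 10 of the 20 at 1 FPKM or more, and the shLucif libraries had 5, 5 and 6. Members that passed through scramble alone could only be higher there. Their summed level was 760.6 to 810.7 FPKM in scramble, 94.8 to 103.4 FPKM in Hepa1-6 shLucif and 5.77 to 7.02 FPKM in CT26 shLucif. Afp, alpha-fetoprotein, had 144, 128 and 143 FPKM in scramble and 7.72, 7.89 and 7.74 FPKM in Hepa1-6 shLucif. In CT26 shLucif Afp had 5.04, 5.885 and 6.362 FPKM, most of the summed level there and not far below Hepa1-6 shLucif. Rbp4, the plasma carrier of retinol, had 353, 338 and 343 FPKM in scramble and 25.9, 26.4 and 24.5 FPKM in shLucif. Fgb, the beta chain of fibrinogen, averaged 16.7 FPKM in scramble, and 2 of 3 shLucif libraries listed it at 0.

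Enzymes and transporters of hepatocyte metabolism were mostly too low to test, and their sum ran the other way. Of 28 listed, 7 were tested, 4 were higher and 1 lower in scramble, and the summed level was 167.4 to 178.9 FPKM in scramble, 306.3 to 326.2 FPKM in Hepa1-6 shLucif and 12.3 to 13.8 FPKM in CT26 shLucif. Most of that sum is Aldh1a1, a retinaldehyde dehydrogenase and the 1 member called lower, which averaged 129.9 FPKM in scramble and 295.3 FPKM in shLucif. Pklr, the liver and red cell pyruvate kinase, averaged 14.9 FPKM in scramble and 0.33 FPKM in shLucif.

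Trf, transferrin, differed far less than the other secreted markers. It had 69.0, 69.3 and 69.2 FPKM in scramble and 50.5, 59.1 and 55.0 FPKM in shLucif, while CT26 shLucif held 0 to 0.0112 FPKM (difference 0.33, SE 0.06, limma adjusted p = 0.00174). The groups do not overlap, but shLucif kept most of the scramble level. Over the wider list of liver plasma proteins, 18 of 20 tested members were higher in scramble and 1, Igfbp4, was lower. Igfbp4, another growth factor binding protein, had 299.6, 281 and 287 FPKM in scramble and 369, 383 and 383 FPKM in shLucif, and its call was lost when all matched libraries of the table shared 1 model (adjusted p = 0.0999).

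Of 16 tested liver transcription factors, 14 were higher and 2 lower in scramble, and they ranged widely. Hnf4a, a master regulator of hepatocyte genes, had 42.0, 42.8 and 44.7 FPKM in scramble and 5.06, 5.37 and 5.01 FPKM in shLucif (difference 2.85, SE 0.04, limma adjusted p = 2.55e-08). Foxa3, a FOXA factor of the liver, averaged 14.4 FPKM in scramble and 0.864 FPKM in shLucif. Foxa2, a pioneer factor of the endoderm, stood almost level, with 28.2, 29.3 and 27.0 FPKM in scramble and 24.4, 19 and 22.3 FPKM in shLucif against 0 in CT26 shLucif. Its relative Foxa1 ran the other way, with 2.25, 1.69 and 2.33 FPKM in scramble, 17.0, 16.2 and 16.3 FPKM in Hepa1-6 shLucif and 4.72, 5.24 and 5.64 FPKM in CT26 shLucif. Among the 3 FOXA genes, scramble thus exceeded shLucif at Foxa3 and Foxa2 and lay below it at Foxa1.

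Epithelial genes mostly followed the liver genes. Among 18 tested junction and keratin genes, 14 were higher and 3 lower in scramble. Krt18 and Krt8, the keratin pair of simple epithelia, averaged 1190.0 and 522 FPKM in scramble and 167 and 86.0 FPKM in shLucif. The exceptions were Krt7, Krt19 and Cldn6. Krt7, a keratin of ducts and glands, had 0.144, 0.126 and 0.161 FPKM in scramble, 15.2, 16.7 and 16.4 FPKM in Hepa1-6 shLucif and 0.280, 0.323 and 0.285 FPKM in CT26 shLucif, so shLucif lay above both. Krt19, named after its values were seen, did the same at low level (0.0556 to 0.181 FPKM in scramble and 1.31 to 2.29 FPKM in shLucif).

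All 6 tested intestinal epithelium markers (of 10) were higher in scramble, with summed levels of 445.5 to 459.0 FPKM, 41.2 to 45.2 FPKM in Hepa1-6 shLucif and 21.7 to 22.1 FPKM in CT26 shLucif. Each scramble library had 6 of the 10 at 1 FPKM or more and each Hepa1-6 shLucif library 4, so some were tested through scramble alone. Cdh17, the liver-intestine cadherin, had 210, 209 and 203 FPKM in scramble and 5.81, 6.66 and 6.12 FPKM in shLucif. Vil1, villin of the brush border, averaged 61.1 FPKM in scramble and 4.09 FPKM in shLucif. The colon line CT26 had less of these markers than Hepa1-6 scramble, and Cdx1 was listed at 0 in every library of the table's 3 groups.

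Mesenchymal and matrix genes were split. Of 17 tested mesenchymal genes, 10 were lower and 5 higher in scramble, and of 21 extracellular matrix genes 12 were lower and 6 higher. Vim, the intermediate filament vimentin, had 48.0, 64.5 and 47.6 FPKM in scramble and 156, 155 and 166 FPKM in shLucif. Col1a2 and Col1a1, the chains of type I collagen, averaged 0.0353 and 0.154 FPKM in scramble and 15.4 and 13.65 FPKM in shLucif. Dcn, the proteoglycan decorin, ran the other way with 264, 262 and 245 FPKM in scramble, 15.7, 17.7 and 18.0 FPKM in Hepa1-6 shLucif and 0.856, 0.809 and 0.584 FPKM in CT26 shLucif. Each of these genes lay between scramble and CT26 shLucif.

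Endothelial and most leukocyte markers were at or near 0 in both groups, and fibroblast markers were not. The 10 fibroblast markers summed to 252.3 to 273.5 FPKM in scramble, 57.5 to 62.3 FPKM in Hepa1-6 shLucif and 167.3 to 188.4 FPKM in CT26 shLucif. Of 5 tested, 2 were higher and 3 lower in scramble, and Dcn makes up most of the scramble sum. The 7 endothelial markers summed to 0.0735 to 0.219 FPKM in scramble and 0.0428 to 0.0711 FPKM in shLucif, and none was tested. The 10 leukocyte markers summed to 5.86 to 7.83 FPKM in scramble and 3.14 to 4.07 FPKM in shLucif, of which Cd68, a lysosomal protein also found outside macrophages, was the 1 tested and was higher in scramble. Ptprc, which encodes the pan-leukocyte protein CD45, was at 0.0298 FPKM or lower in all 6 libraries.

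Interferon-stimulated genes were the list with the most one-sided deficit in scramble. These genes are induced by interferon receptors through STAT factors and encode antiviral proteins, and cells can also switch them on after sensing foreign RNA. Of 39 tested members, 37 were lower in scramble, 29 of them by at least 2-fold, and 1, Usp18 (named after its values were seen), was higher. The median was -1.38, beside -0.04 over all tested genes. Members that passed the filter through shLucif alone could only be lower in scramble, so part of this one-sidedness was set in advance. In 33 of 39 the shLucif mean lay between scramble and CT26 shLucif. Bst2, the tether that holds budding viruses, had 51.4, 48.8 and 49.0 FPKM in scramble, 145, 171 and 185 FPKM in Hepa1-6 shLucif and 201, 211 and 203 FPKM in CT26 shLucif. Ifitm3, which blocks viral entry, averaged 150.3 FPKM in scramble, 391 FPKM in Hepa1-6 shLucif and 481 FPKM in CT26 shLucif.

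Several of these genes were almost silent in scramble. Isg15, a ubiquitin-like modifier, had 1.43, 1.03 and 1.40 FPKM in scramble, 24.0, 31.4 and 35.7 FPKM in Hepa1-6 shLucif and 116, 116 and 111 FPKM in CT26 shLucif. Oas2, an enzyme that senses double-stranded RNA, had at most 0.0126 FPKM in scramble and 6.18, 7.10 and 8.70 FPKM in shLucif. Isg15 and Oas2 were chosen after their values were seen. Lgals3bp, a secreted galectin-binding protein, was an exception in position: it had 9.18, 8.56 and 9.64 FPKM in scramble, 92.4, 104 and 110 FPKM in Hepa1-6 shLucif and 25.6, 25.6 and 28 FPKM in CT26 shLucif. CT26 line genes move with this list between the same libraries, and their part in the result was not tested.

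The upstream signalling genes moved less uniformly. Of 28 tested interferon and RNA-sensing genes, 15 were lower and 8 higher in scramble. Eif2ak2, the RNA-activated kinase PKR, had 9.24, 8.95 and 9.40 FPKM in scramble and 20.4, 23.4 and 21.0 FPKM in shLucif, slightly above the 18.5 to 19.6 FPKM of CT26 shLucif. Jak1, a kinase of cytokine receptors, and Ifngr1, a chain of the interferon gamma receptor, were higher in scramble (differences 0.73 and 1.02, limma adjusted p = 1.85e-05 and 0.000117). In the small RNA pathway, which processes hairpins, 5 of 14 tested genes were higher and 4 lower in scramble, and Drosha, the nuclear RNase of that pathway, averaged 34.3 FPKM in scramble and 19.3 FPKM in shLucif.

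Of 20 tested genes of MHC class I antigen presentation, 13 were lower and 5 higher in scramble. H2-K1, a classical class I heavy chain, had 0.0279, 0.0168 and 0.0488 FPKM in scramble, 10.6, 10.7 and 10.9 FPKM in Hepa1-6 shLucif and 28.6, 34.0 and 25.2 FPKM in CT26 shLucif. It was chosen after its values were seen, and because class I genes are near-identical and differ between mouse strains, their split is uncertain. H2-D1, the other classical chain in the table, was nearly level at 146, 150 and 156 FPKM in scramble and 127, 138 and 137 FPKM in shLucif. The light chain B2m had 590.0, 588 and 561 FPKM in scramble and 594, 547 and 562 FPKM in shLucif, overlapping ranges with a difference of 0.03 (limma adjusted p = 0.565).

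Immune checkpoint and natural killer ligands were mixed, with 6 of 11 tested genes higher and 4 lower in scramble. Pdcd1lg2, which encodes the PD-1 ligand PD-L2, had 16.6, 18.7 and 18.2 FPKM in scramble and 3.08, 2.77 and 2.31 FPKM in shLucif. Cd274, which encodes PD-L1 and was chosen after its values were seen, had 7.13, 7.20 and 7.82 FPKM in scramble, 1.49, 1.5 and 1.95 FPKM in Hepa1-6 shLucif and 2.55, 2.34 and 2.56 FPKM in CT26 shLucif. Its shLucif values thus lay below both. Among chemokines, Ccl2, which recruits monocytes, averaged 79.9 FPKM in scramble and 35.9 FPKM in shLucif, while Cxcl5, which recruits neutrophils, was lower in scramble at 35.9, 39.8 and 34.4 FPKM against 86.7, 89.9 and 94.2 FPKM in shLucif.

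The title of the series names SOAT1, a cholesterol-esterifying enzyme, and the receptor GPR132, and their levels in the control groups are given whatever their values. Soat1 (GRCm38 chromosome 1, 156424525 to 156474331, minus strand) had 0.159, 0.182 and 0.0977 FPKM in scramble, 12.7, 12.8 and 13.6 FPKM in Hepa1-6 shLucif and 19.6, 19.9 and 20.2 FPKM in CT26 shLucif. Scramble and shLucif differed by -3.62 (SE 0.06, limma adjusted p = 3.01e-08) and do not overlap. In the drug table Soat1 had 0.131, 0.158 and 0.13 FPKM in Hepa1-6 DMSO and 12.1, 12.2 and 12.5 FPKM in CT26 DMSO, so of the Hepa1-6 groups used here Soat1 passed 1 FPKM in shLucif alone. Soat2, the second such enzyme, had 0.390, 0.578 and 0.592 FPKM in scramble, 1.37, 1.40 and 1.55 FPKM in Hepa1-6 shLucif and 58.6, 61.9 and 59.2 FPKM in CT26 shLucif. Gpr132 averaged 0.753 ± 0.0852 FPKM in scramble and 0.660 ± 0.128 FPKM in shLucif (SD, n = 3 each) and was too low to test.

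Cholesterol synthesis genes, which SREBP2 switches on when membrane sterol is low, were mostly higher in scramble: 16 of 20 tested were higher and 3 lower, with a median of 0.69. Hmgcs1, an early enzyme, had 39.3, 38.1 and 38.7 FPKM in scramble and 17.9, 16.8 and 16.6 FPKM in shLucif. Sqle, squalene epoxidase, had 52.5, 64.1 and 53.3 FPKM in scramble, 21.2, 24.5 and 18.5 FPKM in Hepa1-6 shLucif and 18.8, 17.6 and 20.6 FPKM in CT26 shLucif. In 10 of the 20 the shLucif mean lay between the other groups, in 6 below both and in 4 above both, beside 56.1% between, 16.2% below and 27.7% above over all tested genes. Fatty acid synthesis genes were higher for 10 of 15 tested and lower for 3, and there Scd2 had 69.8, 279 and 276 FPKM in scramble, with 1 library far below the other 2.

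Chaperones of the endoplasmic reticulum, which fold secreted proteins, were more often lower than higher in scramble. Of 20 tested, 15 were lower and 3 higher, with a median of -0.64, and in 12 of 20 the shLucif mean exceeded both scramble and CT26 shLucif, which it did at 27.7% of all tested genes. Calr, calreticulin, had 247, 243 and 257 FPKM in scramble, 410, 403 and 411 FPKM in Hepa1-6 shLucif and 181, 177 and 182 FPKM in CT26 shLucif. Hspa5, the chaperone BiP, instead lay between at 137, 134 and 137 FPKM in scramble, 216, 230 and 227 FPKM in Hepa1-6 shLucif and 380, 384 and 365 FPKM in CT26 shLucif. Of 24 tested targets of ATF4, the transcription factor of amino acid stress, 15 were lower and 6 higher in scramble, and Slc7a5, an amino acid transporter, averaged 31.0 FPKM in scramble and 72.4 FPKM in shLucif. Phgdh, an enzyme of serine synthesis, was an exception at 974, 904 and 942 FPKM in scramble and 377, 403 and 409 FPKM in shLucif.

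**Figure D4:**
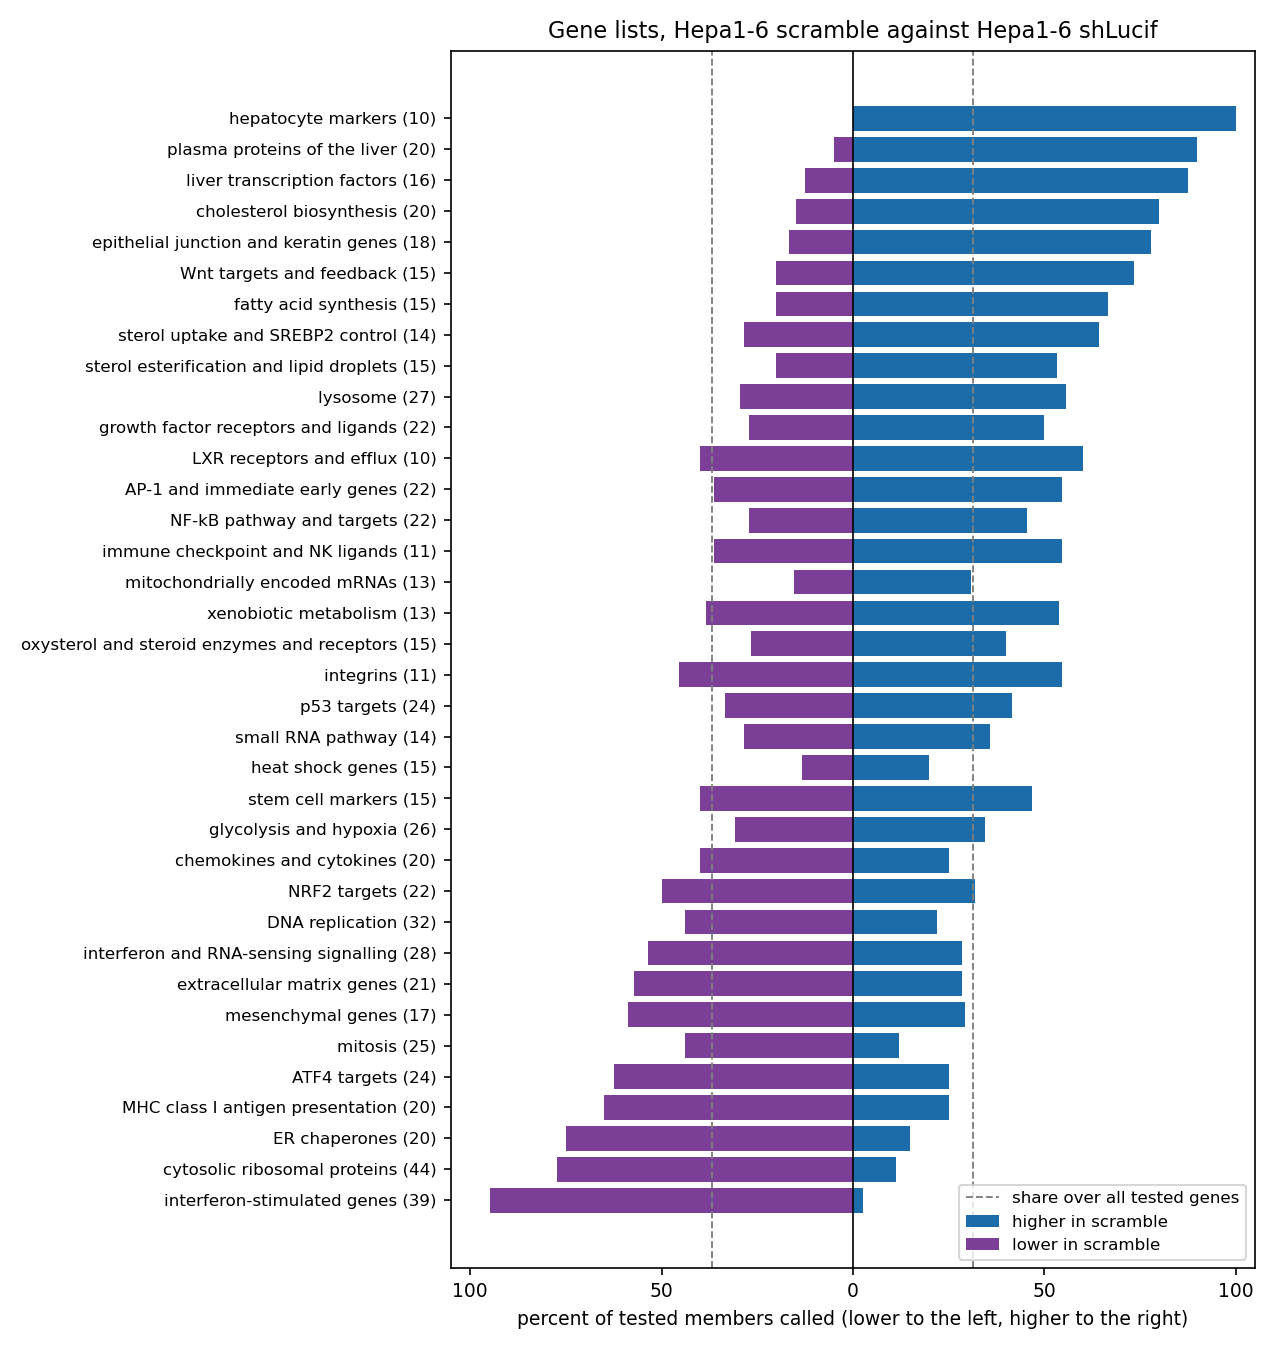
Bars give the percent of tested members called higher (right) and lower (left) in Hepa1-6 scramble than in Hepa1-6 shLucif for gene lists with at least 10 tested members (number in parentheses); dashed lines mark 31.4% higher and 36.8% lower over all tested genes. Hepatocyte markers, liver plasma proteins and liver transcription factors extend furthest right, and interferon-stimulated genes, ribosomal proteins and chaperones furthest left.

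Some genes in shLucif lay outside the other 4 groups used here. Against all 12 libraries of scramble, CT26 shLucif, Hepa1-6 DMSO and CT26 DMSO, every shLucif library was at least 2-fold above the highest of them at 19 genes with 5 FPKM or more, and at least 2-fold below the lowest at 4. Against the 6 libraries of the knockdown table alone, these counts were 35 and 11. The 19 and 4 genes were chosen by these values, so their levels are a description.

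Tnfsf9 had 0 FPKM in every scramble library, 53.3, 53.2 and 55.8 FPKM in Hepa1-6 shLucif, 6.71, 5.93 and 7.80 FPKM in CT26 shLucif and at most 8.97 FPKM in either DMSO group. Oplah, which recycles oxoproline in the glutathione cycle, had 2.30, 1.82 and 2.55 FPKM in scramble, 60.4, 62.4 and 64.4 FPKM in Hepa1-6 shLucif and 0.72, 0.637 and 0.847 FPKM in CT26 shLucif. Ifi27l2a, an interferon-induced gene, had 3.55, 2.89 and 3.11 FPKM in scramble, 55.0, 55.1 and 64.5 FPKM in Hepa1-6 shLucif and 13.6, 13.3 and 14.3 FPKM in CT26 shLucif.

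Cxcl15, a chemokine known from lung epithelium, had 2.74, 2.79 and 2.99 FPKM in scramble and 22.1, 22.1 and 23.4 FPKM in shLucif, and was listed at 0 in CT26 shLucif and CT26 DMSO. The keratins Krt7, Krt33b and Krt76, Foxa1 and Cxcl5 belong to the same set. Aldh3a1, an aldehyde dehydrogenase of the xenobiotic response, had 0.0796, 0.158 and 0.213 FPKM in scramble and 8.65, 9.78 and 9.53 FPKM in shLucif. The others are Aox1, Cd38, Cd53, Col8a1, Eva1c, Gm19589, Lipo1, Rai14 and Slco4a1, with shLucif means of 5.41 to 42.9 FPKM.

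The 4 genes below all 12 of these libraries are Gpnmb, Psap, Fads2 and Polr2c. Gpnmb, a membrane glycoprotein of melanosomes and lysosomes, had 48.3, 46.9 and 51.4 FPKM in scramble, 6.52, 6.03 and 6.02 FPKM in Hepa1-6 shLucif and 20.6, 21.0 and 19.6 FPKM in CT26 shLucif. Psap, the precursor of lysosomal saposins, had 174, 172 and 179 FPKM in scramble, 62.2, 61.7 and 68.5 FPKM in Hepa1-6 shLucif and 139, 140 and 143 FPKM in CT26 shLucif. Fads2, a fatty acid desaturase, averaged 37.3 FPKM in scramble and 10.7 FPKM in shLucif, and Polr2c, a subunit of RNA polymerase II, 14.1 FPKM in scramble and 4.86 FPKM in shLucif. All 4 are also called higher in scramble.

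**Figure D5:**
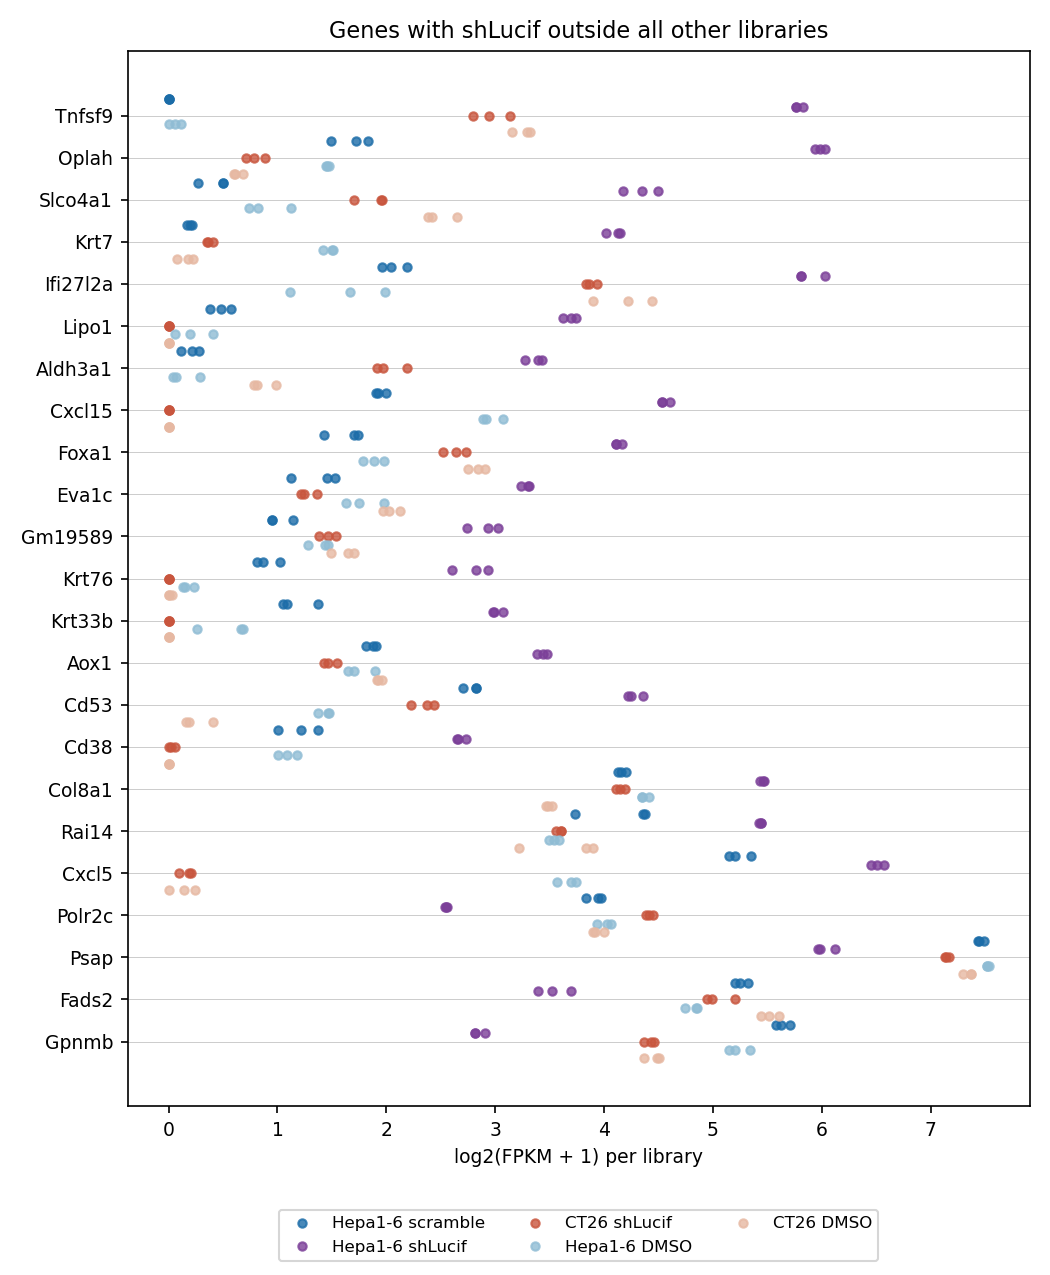
Each point is a library, as log2(FPKM + 1), for the 19 genes at which every Hepa1-6 shLucif library lies at least 2-fold above, and the 4 at which it lies at least 2-fold below, all libraries of Hepa1-6 scramble, CT26 shLucif, Hepa1-6 DMSO and CT26 DMSO (DMSO values from a table normalized separately). Oplah shows the widest gap above (lowest shLucif library 60.4 FPKM, highest other library 2.55 FPKM), followed by Lipo1, and Gpnmb the widest below.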

How the data were processed

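Gene expression was measured by paired-end RNA sequencing of total RNA, with reads trimmed by Skewer, per the labels' protocols. The deposited values are FPKM made by the authors, in 1 table for each of the knockdown and drug experiments. The submitters' processing notes list the build GRCm38 and the programs edgeR, DESeq2, STAR and HISAT2. What each of them did is not given in the sources used here, and neither is the use of strand, so overlapping genes cannot be told apart. The tables were normalized separately, each experiment carries 1 batch date, and the distributed table names are swapped, so tables were assigned by their column names. A further 21 columns match no label and were not used.

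Each pair of groups was fitted alone with limma 3.58.1 in R 4.3.3 (mean-variance trend) on log2(FPKM + 1), which understates differences of low genes. A gene was tested, two-sided, where 3 or more of the 6 libraries compared reached 1 FPKM, with Benjamini-Hochberg adjustment over all of them. The procedure was tested on simulated data. An exact permutation test of 3 libraries against 3 cannot go below a two-sided p of 0.1 and was not used. FPKM carry no read totals, so no counting interval could be given; relative depth was estimated from values under 0.05 FPKM. No pair of libraries held identical values.

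Genes named are Soat1, Soat2 and Gpr132, the 12 protein-coding genes with the largest difference in each direction among those called, not overlapping and with at least 10 FPKM in the higher group, and the up to 4 called members of each list with the highest mean, with cell type markers of at least 10 FPKM; others are said to be chosen after their values were seen. Of 1075 entries in 46 lists, 1074 were found in the tables. The groups, lists and tests were chosen with earlier results of these data known. Gene positions are from GENCODE vM21 and promoters from RefSeq. Alternatives were another pseudocount, filter and scaling, no trend, a replicate block, protein-coding genes alone, 1 model for the table, each library left out, and for line genes a looser definition and 5 FPKM as present. The values of some single genes are not reported here.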

Additional observations from a re-analysis of the deposited data

How the results depend on the processing

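The number of genes that differed between scramble and shLucif (8221) stayed within 1.5 times of itself under every alternative run, from 5601 of 7748 genes with a minimum of 5 FPKM to 9738 of 28632 with no filter, and lay between 7644 and 7915 with 1 library left out. For scramble against CT26 shLucif, leaving out 1 library gave 9825 to 9871, and for Hepa1-6 shLucif against CT26 shLucif 8178 to 8463. Same-numbered scramble and shLucif libraries gave no sign of deviating together (correlations -0.0497, -0.0346 and 0.0264, beside -0.0463 to 0.0747 for differently numbered ones). Such small values cannot exclude that same-numbered libraries were handled together, and a replicate block gave 8020 genes. Counting a line gene as present at 5 FPKM gave 99.4% of Hepa1-6 line genes and 0.704% of CT26 line genes in scramble, and 52.1% and 59.2% in Hepa1-6 shLucif, in place of 100% and 1.41% in scramble and 86.4% and 92.3% in shLucif. With line genes defined at 5 FPKM or more in their own line and 1 FPKM or less in the other, CT26 line genes were at 3.49% in scramble, and shLucif held 80.7% of Hepa1-6 and 90.8% of CT26 line genes. Leaving out 1 shLucif library gave 85.2% to 85.8% for Hepa1-6 line genes and 91.5% to 93.7% for CT26 line genes. Of 3097 values of the 207 named and tested genes, 3055 kept direction and call, 41 lost the call (13 genes) and 1 turned: mt-Nd4, 0.26 as reported, was -0.0235 after quantile normalization, and the cause was not tested. Read totals are unknown, so what depth limits could not be computed.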

Other observations

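Other gene groups are given here against 31.4% higher and 36.8% lower over all tested genes. Of 44 tested cytosolic ribosomal protein genes, 34 were lower and 5 higher in scramble, with a median of -0.38, and 30 were lower after quantile normalization. Rpl4, a protein of the large subunit, had 628, 604 and 612 FPKM in scramble and 1000.0, 1026 and 1013 FPKM in shLucif, while Rps2, of the small subunit, had 1127, 1072 and 1070 FPKM in scramble and 784, 847 and 827 FPKM in shLucif. Of 25 mitosis genes, 11 were lower and 3 higher in scramble, so 14 of 25 were called, fewer than the 68.2% over all tested genes. In 14 of 25 the shLucif mean exceeded both scramble and CT26 shLucif, beside 27.7% of all tested genes. Cdc20, an activator of the anaphase-promoting complex, had 68.6, 70.3 and 68.8 FPKM in scramble, 99.6, 98.5 and 98.8 FPKM in Hepa1-6 shLucif and 59.4, 56.3 and 52.1 FPKM in CT26 shLucif. Of 32 DNA replication genes, 14 were lower and 7 higher in scramble, near the share over all genes, and none differed by 2-fold.

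Of 39 listed Hox genes, which record the body position a cell came from, 8 were tested, of which 6 were lower and 2 higher in scramble. Members that reached 1 FPKM in shLucif alone, such as Hoxc6, could only be lower in scramble. Hoxc6 had at most 0.0232 FPKM in scramble, 5.77, 5.05 and 6.05 FPKM in Hepa1-6 shLucif and 6.25, 6.60 and 7.02 FPKM in CT26 shLucif. Xist, the RNA that silences an X chromosome in female mouse cells, had 47.0, 50.3 and 48.5 FPKM in scramble, 25.6, 23.6 and 24.2 FPKM in Hepa1-6 shLucif and 0.0228 FPKM or less in CT26 shLucif. Of 27 lysosome genes, 15 were higher and 8 lower in scramble, among them Ctsd, the protease cathepsin D, with 329, 297 and 302 FPKM in scramble and 162, 168 and 163 FPKM in shLucif. Ctsz, cathepsin Z, ran the other way with 177, 171 and 177 FPKM in scramble and 274, 289 and 297 FPKM in shLucif. Mitochondrially encoded mRNAs gave no stable count: of 13 tested, 4 were higher and 2 lower in scramble, but without shLucif replicate 1 the counts were 9 higher and 3 lower.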
